A study of Homo sapiens with 4 samples.

Results

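The genes described here encode factors that build ribosomes and process ribosomal and transfer RNA. They were chosen by symbol alone: the NOP, NOL, UTP, RRP, POLR1, POP, RPP, IMP and TSR series, plus 13 named factors such as FBL, NPM1, NCL and LAS1L. Of the 12838 symbols in the deposited table, 68 matched, and each of the 68 was found in the RefSeq gene table of GRCh38.p14. One of them, NOL3, carries the series' name but encodes an inhibitor of cell death, so it is given apart.

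The libraries were made from LM2-4175 cells, a subline of the breast cancer line MDA-MB-231 selected for spread to the lung. All cells, the untreated ones included, stably carried a doxycycline-inducible construct of CerS4, an enzyme that makes ceramide. RNA was immunoprecipitated with an antibody to EXOSC10, a nuclear 3′ to 5′ exoribonuclease of the RNA exosome, or with control IgG. The 4 groups were untreated IgG, untreated EXOSC10, IgG after doxycycline at 5 µg/mL for 48 h, and EXOSC10 after the same doxycycline, with 1 library per group. Doxycycline came only with the construct, so the effects of the drug and of CerS4 cannot be told apart. The study set out to learn how PD-L1 and Caprin-1 affect mRNA decay when lipid metabolism is altered, and its primary comparison was EXOSC10-bound mRNA with and without doxycycline.

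Ribosome assembly starts in the nucleolus, where RNA polymerase I copies the ribosomal DNA into a long precursor. Small nucleolar ribonucleoproteins (snoRNPs) modify this precursor, and large assemblies of proteins fold it, cut it and load it with ribosomal proteins. The RNA exosome with EXOSC10 trims the 3′ ends of ribosomal RNA precursors and degrades the spacers that are cut out. The libraries did not measure that activity. They measured how many reads of the factors' own mRNAs came down with the antibody.

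The libraries held between 3723419 and 7575319 estimated reads, of which 56.3% to 83.8% lay on ribosomal RNA genes, leaving 1023391 to 2408225 on other genes. The labels give polyA RNA as the molecule. Of the markers listed for a mesenchymal breast carcinoma line, 9 of 9 had entries, from VIM with 2079 to 4396 reads down to KRT8 with 7.51 to 111. The list includes the keratins KRT8, KRT18 and KRT19 (the last with 185 to 1163 reads), so the count alone does not set the line apart from luminal cells. Of the luminal markers 2 of 4 had entries, GATA3 with 17 to 69 reads and CDH1 with 0.434 to 35 reads. Of the blood markers 1 of 6 had one (CD68, 26 to 195 reads), and so did 1 of 5 fibroblast and endothelial markers (PECAM1, 2 to 31 reads). Neither CERS4 nor CD274 had an entry analysed here, so induction of the construct was not checked. Values of the libraries are given in the order IgG then EXOSC10 for untreated cells, followed by IgG then EXOSC10 for doxycycline. In that order EXOSC10 mRNA had 6, 15, 21 and 78 reads. The RNA came from bulk cells, so fewer cells with an mRNA and less of it per cell cannot be told apart.

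Promoter windows are shown for members that lay on the same side of IgG in both treatments, to place them beside the values below. Each line runs from 50 bases before to 10 bases after the RefSeq start site (GRCh38.p14), 5′ to 3′ on the gene's strand. LAS1L and ELAC2 were higher with EXOSC10 in both treatments, while NPM1, NOP56 and WDR12 were on the lower side in both. Capitals mark a run of at least 5 pyrimidines that begins with C at the start site, the layout of a terminal oligopyrimidine mRNA.
LAS1L (chrX:65534778-65534837, minus strand): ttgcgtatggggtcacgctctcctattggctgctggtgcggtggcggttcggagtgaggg
ELAC2 (chr17:13018018-13018077, minus strand): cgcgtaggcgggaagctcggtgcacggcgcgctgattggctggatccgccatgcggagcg
NPM1 (chr5:171387799-171387858, plus strand): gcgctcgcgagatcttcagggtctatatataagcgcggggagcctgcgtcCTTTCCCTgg
NOP56 (chr20:2652582-2652641, plus strand): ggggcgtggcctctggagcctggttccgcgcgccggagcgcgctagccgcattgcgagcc
WDR12 (chr2:202911664-202911723, minus strand): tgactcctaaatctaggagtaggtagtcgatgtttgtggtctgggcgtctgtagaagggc
Among these windows, a pyrimidine start was found in NPM1. Over the 59 members with a promoter in the RefSeq table, 5 had one (8.47%: FBL, NOB1, NOP53, NPM1 and UTP14A), against 4.04% of all 27305 promoters.

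The E-box CACGTG, a site read by MYC, a transcription factor known to drive ribosome production, was also searched for over the 250 bases before each start; its letters read the same on both strands. It was present in 11 of the 59 members (18.6%) and in 6.49% of all promoters. The windows of 3 members with the site close to the start are shown because their mRNAs behaved differently with EXOSC10. UTP4 was among the lowest over IgG, UTP20 among the highest, and NOP10 was between them.
UTP4 (chr16:69132599-69132658, plus strand): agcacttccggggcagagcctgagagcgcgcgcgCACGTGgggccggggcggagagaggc
UTP20 (chr12:101280055-101280114, plus strand): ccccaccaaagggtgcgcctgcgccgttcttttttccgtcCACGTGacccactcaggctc
NOP10 (chr15:34343127-34343186, minus strand): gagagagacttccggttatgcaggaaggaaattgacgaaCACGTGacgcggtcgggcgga
A match of letters is a description of the window and says nothing of whether a factor binds there.

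Together the 68 mRNAs took 0.250% of the reads that lay outside ribosomal RNA when IgG was used on untreated cells (exact Clopper-Pearson 95% interval 0.240 to 0.259) and 0.458% in the untreated EXOSC10 library (0.445 to 0.471). After doxycycline the shares were 0.268% with IgG (0.259 to 0.277) and 0.531% with EXOSC10 (0.522 to 0.540). Thus the share with EXOSC10 was 1.83-fold that with IgG untreated and 1.98-fold with doxycycline. On this denominator the median log2 ratio of all genes with 100 reads in the pair was itself 0.56 untreated and 1.07 with doxycycline, and that of the members was 1.23 and 1.61. The medians of all genes are themselves positive, so a higher share does not by itself set the members or a role apart. A share fold pools reads and so weighs abundant genes more, while a median weighs each gene alike. The share folds, and those by role, therefore cannot be ranked against these medians. Gene by gene, the members' median lay above that of all genes in both pairs. Without NPM1 and NCL, which have the most reads in the EXOSC10 libraries, the folds were 2.08 and 2.22. The intervals cover counting error only: the reads carry no molecular identifiers, so copies of 1 molecule may be counted again, and no group had a replicate.

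Roles differed in how far their shares separated the antibodies. The 9 mRNAs for RNase P, RNase MRP and tRNA 3′ ends had a share 4.03-fold higher with EXOSC10 untreated (3.16 to 5.19) and 4.20-fold higher with doxycycline (3.40 to 5.25). ELAC2 alone held 59.7% and 50.7% of this role's EXOSC10 reads, and without it the folds were 2.79 (1.99 to 3.95) and 3.43 (2.60 to 4.61). Late small-subunit factors were at 3.52-fold and 3.48-fold. The 21 small-subunit processome mRNAs were at 2.70-fold and 2.76-fold, and RNA polymerase I subunits at 2.11-fold and 1.94-fold, or 3.29-fold and 3.05-fold without POLR1D. Box H/ACA snoRNP mRNAs were at 1.74-fold and 2.06-fold, the latter 3.15-fold without DKC1. The order of these roles thus rests in part on single genes. Large-subunit factors were at 1.99-fold untreated (1.77 to 2.24) and 2.95-fold with doxycycline (2.67 to 3.26). The box C/D snoRNP mRNAs were the lowest of the roles: 1.08-fold untreated, with an interval of 0.951 to 1.23 that includes equality, and 0.763-fold with doxycycline (0.687 to 0.847). NOP56 held 63.55% and 56.36% of this role's EXOSC10 reads. Without it the folds were 1.08 (0.87 to 1.34) and 0.89 (0.75 to 1.055), and both intervals include equality.

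**Figure D1:**
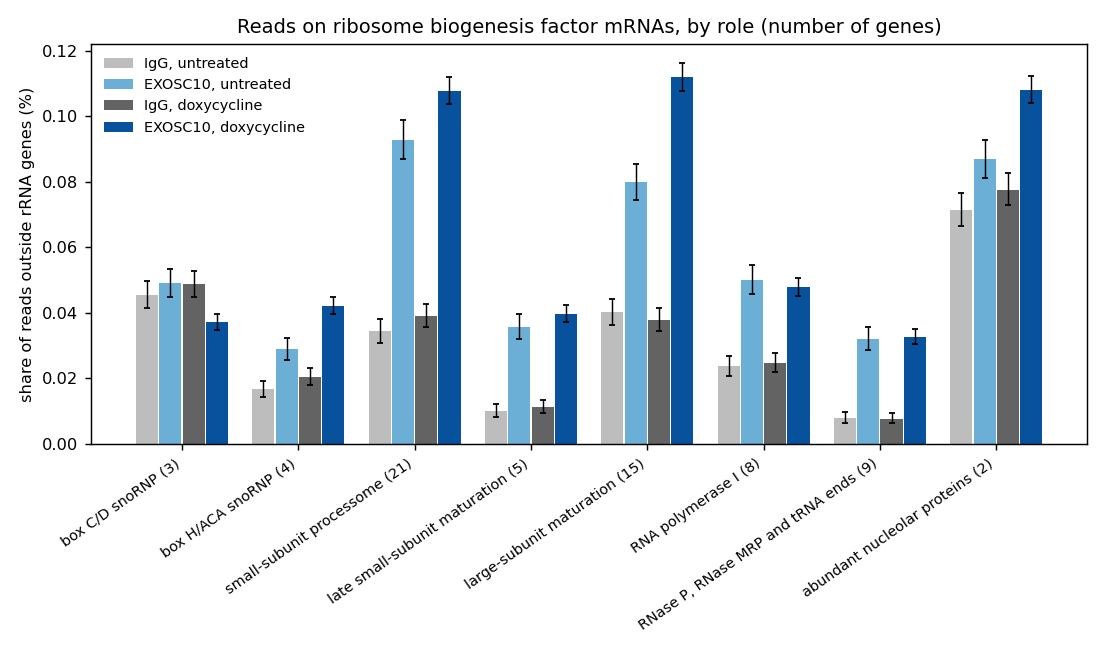
Share of the reads outside ribosomal RNA genes (percent, from 0) taken by each role's mRNAs in the 4 libraries; bars are single libraries, whiskers exact 95% counting intervals, and numbers in parentheses count genes. Both EXOSC10 bars stand above both IgG bars for every role shown except box C/D snoRNPs, where the doxycycline EXOSC10 bar is the lowest at 0.0372%.

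For single genes, the libraries were scaled by TMM, a trimmed mean of gene ratios that sets the middle of the shared genes equal. Ratios are log2 ratios of the scaled values in CPM, reads per 1000000, with 0.2 CPM added. A ratio was read only for genes with at least 100 reads in its pair of libraries, and higher or lower means at least 2-fold. IgG reads were scarce: 38 of the 68 members had fewer than 20 in the untreated IgG library and 39 in the doxycycline IgG library. The minimum was therefore often met through the EXOSC10 library alone, and it was reached by 19 members in the untreated antibody pair and 46 in the doxycycline pair.

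In the untreated pair, 2 of the 19 members were higher with EXOSC10, where 4.95% of 3619 genes were, and 4 were lower, where 36.7% were. With doxycycline, 15 of 46 were higher, against 13.6% of 6279 genes, and 5 were lower, against 26.9%. The members' median was 0.20 untreated, with all genes at -0.47, and 0.58 with doxycycline, with all genes at 0.03. Over all 68 members, with no minimum, the medians were 0.35 and 0.64, with all 12838 symbols at 0.00 and 0.36. Among the genes that reached the minimum, the members' median lay 0.68 and 0.55 above that of all genes. With no minimum the distance was smaller in both pairs. The distance was 0.32 in both pairs when only genes with whole reads were kept, and 0.36 and 0.34 with a minimum of 20 reads. Counts on either side depend on the scaling: with the total of reads outside ribosomal RNA genes, 11 were higher and 0 lower untreated, where 38.3% and 8.43% of all genes were. With doxycycline 34 were higher and 0 lower, where 51.9% and 10.5% of all genes were. With the total of all reads, the 5 lower members of the doxycycline pair (NPM1, NOP56, NOP58, UTP4 and WDR12) turned above 0. Lower in what follows therefore means low in relation to the middle of all genes.

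The ratio also moves with abundance, since genes with 500 reads or more had a median of -1.54 untreated and -1.03 with doxycycline. Within bands of reads, 10 of 12 members with 100 to 200 reads lay above the band's median untreated, and 17 of 19 with doxycycline. In the band from 200 to 500 reads it was 2 of 4 and 16 of 22, and above that 3 of 3 and 3 of 5. Across the 19 members measured in both pairs, which share no library, Pearson's r between the treatments was 0.85 and Spearman's rho 0.80. The 3599 genes measured in both had 0.79 and 0.81; genes in 1 library share its depth and are not replicates.

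**Figure D2:**
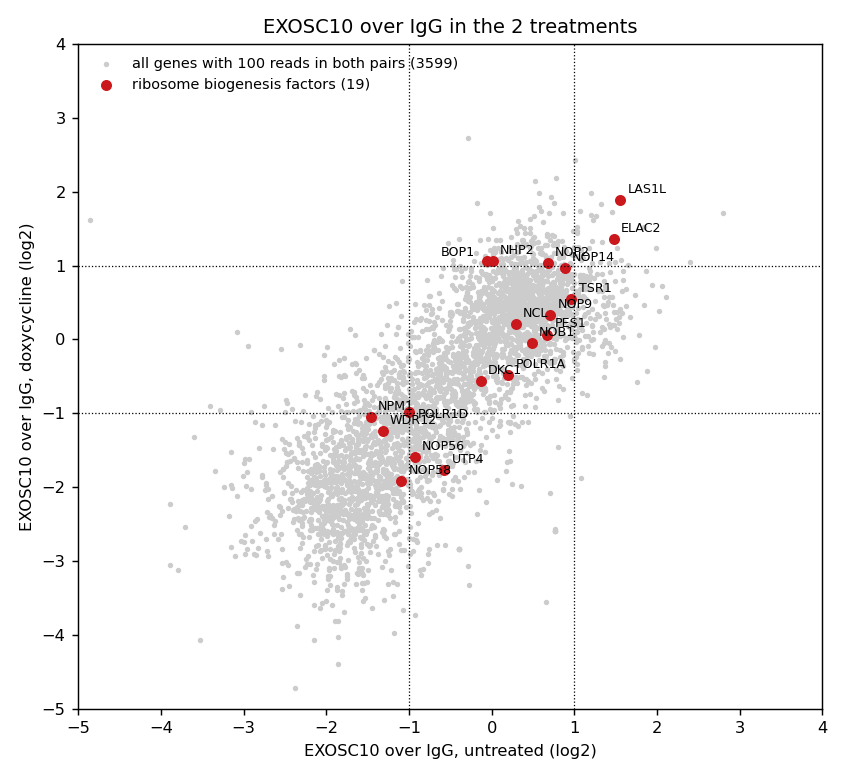
EXOSC10 over IgG log2 ratios in untreated cells (horizontal) and with doxycycline (vertical) for 3599 genes (grey) and the 19 ribosome biogenesis factors with 100 reads in both pairs (red); dotted lines mark 2-fold, and 5 genes lie outside the axes. LAS1L and ELAC2 sit beyond 2-fold at the upper right, NPM1, WDR12 and NOP58 at the lower left.

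Higher in both treatments were 2 members, LAS1L and ELAC2, against 0.917% of the 3599 genes. LAS1L, the endonuclease scaffold that cuts the second internal spacer of the ribosomal RNA precursor, had 15.8, 94.9, 17.4 and 269 reads. It was low in both IgG libraries and high in both EXOSC10 libraries, at 1.56 untreated (95% interval 0.81 to 2.46) and 1.88 with doxycycline (1.23 to 2.72). LAS1L lies on chromosome X from 65512582 to 65534787. ELAC2, which cuts the 3′ trailer off transfer RNA precursors, had 34.9, 196, 37.9 and 399 reads. Its ratios were 1.47 (0.96 to 2.05) and 1.35 (0.89 to 1.89), and it lies on chromosome 17 from 12991612 to 13018027. Both genes held fractions of reads, as when 1 read is shared out among several models.

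Lower in both treatments were 3 members, NPM1, NOP58 and WDR12, against 31.5% of the 3599 genes. NPM1, a nucleolar chaperone that also escorts ribosomal particles, had 552, 400, 691 and 1361 reads; after scaling these were 210, 76.2, 202 and 97.5 CPM. On that scale both IgG libraries were above both EXOSC10 libraries, with ratios of -1.46 (-1.65 to -1.28) and -1.05 (-1.18 to -0.92). The doxycycline ratio was 0.0083 with the total of reads outside ribosomal RNA genes, so its direction over IgG is set by the scaling. NOP58, a core protein of box C/D snoRNPs, had 135, 126, 199 and 212 reads and ratios of -1.09 (-1.46 to -0.74) and -1.92 (-2.22 to -1.65). WDR12, which joins PES1 and BOP1 in a complex for the large subunit, had 98, 78, 74 and 126 reads and ratios of -1.32 (-1.78 to -0.89) and -1.24 (-1.69 to -0.83).

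An additive test over all 4 libraries, in which the treatments stand in for replicates of the antibody, gave p-values for 63 members among 9594 genes. With limma and Benjamini-Hochberg adjustment, 6 members were higher with EXOSC10 (1.31% of all genes were) and 5 were lower (16.2% of all genes). The higher ones were ELAC2 (log2 difference 1.41, SE 0.31, adjusted p = 0.013), LAS1L (1.72, SE 0.41, adjusted p = 0.018), NOL11 (1.71), RRP12 (1.90), RRP36 (2.08) and NOL3 (4.89, a value that depends on the 0.2 CPM added, since IgG gave 0 reads). The lower ones were NPM1 (-1.26, SE 0.25, limma adjusted p = 0.0087), NOP58 (-1.51), NOP56 (-1.26), WDR12 (-1.28) and POLR1D (-0.997), and these 5 turned positive, between 0.13 and 0.64, with the total of all reads. Each of the 11 had the same sign in both treatments. All 11 calls were lost when limma's mean-variance trend was left out. At an unadjusted limma p under 0.05, 11 members were then higher and 4 lower, among 869 genes higher and 1644 lower of the 9594. The fit has 1 residual degree of freedom per gene before moderation, and nothing in the labels describes separate cultures.

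Among the box C/D snoRNP proteins, which guide 2′-O-methylation of ribosomal RNA, NOP56 followed its partner NOP58. NOP56 had 304, 319, 376 and 505 reads, a ratio of -0.93 untreated (-1.16 to -0.70) and -1.60 with doxycycline (-1.80 to -1.41). FBL, the methyltransferase of the same particle, did not share this pattern: it had 39, 57, 25 and 179 reads and was at 0.80 with doxycycline (0.20 to 1.48). NOP56 and NOP58 hold 5 and 4 snoRNA genes within their bounds in the gene table. Across members, 8 contained a snoRNA gene, and 3 of these (DKC1, NOP56 and NOP58) were below 0 with doxycycline, while 9 of the 38 others with 100 reads were. The medians were 0.38 for the 8 and 0.61 for the 38, with all genes at 0.03. The share of all genes below 0 at this minimum was not counted.

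The box H/ACA snoRNP proteins direct pseudouridylation. DKC1, the pseudouridine synthase, had 81, 148, 159 and 439 reads and ratios of -0.13 (-0.53 to 0.28) and -0.56 (-0.83 to -0.29). NHP2, a core RNA-binding subunit, had 46.3, 93.6, 42.7 and 365 reads; its ratio was 0.02 untreated and 1.06 with doxycycline (0.61 to 1.56). NHP2 overlaps RMND5B, and its reads were partly fractions. NOP10, the smallest subunit, was at -0.23 with doxycycline (-0.70 to 0.27), and GAR1 had 3, 8, 3 and 46 reads, below the minimum in each antibody pair.

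Within the small-subunit processome, the particle that folds and cuts the 5′ part of the precursor, 14 of 21 members reached 100 reads with doxycycline, with 6 higher and 1 lower. Of all 6279 genes in that pair, 13.6% were higher and 26.9% lower. Each of the 6 reached the minimum through the EXOSC10 library alone, where it was high. RRP36 had 7, 71, 11 and 176 reads and a doxycycline ratio of 1.91 (1.10 to 3.001). UTP20, a large scaffold protein, had 16, 41, 9 and 147 reads and was at 1.92 (1.04 to 3.16). NOL11 (1.45), NOL6 (1.52), NOL10 (1.39) and NOL7 (1.15) completed the higher set, and the last 2 of these held fractions of reads. NOL11, which is needed for early transcription and processing, had 9, 73, 23 and 262 reads. The deposited entries of a symbol split these reads unevenly: of its 2 entries, the first had 8.94, 6.18, 0.01 and 249 reads and the second 0.06, 66.8, 23.0 and 12.9. Only sums over a symbol are therefore used.

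NOP14, a scaffold of the small-subunit precursor, had 23, 85.8, 31 and 250 reads and was at 0.88 untreated (0.22 to 1.63) and 0.97 with doxycycline (0.44 to 1.57), and it overlaps NOP14-AS1. UTP4 was the processome member past 2-fold on the lower side. It had 76, 102, 135 and 160 reads, with ratios of -0.57 untreated (-1.02 to -0.13) and -1.77 with doxycycline (-2.12 to -1.44). UTP4 lies on chromosome 16 from 69132649 to 69169021 and its reads were whole. RRP9, which binds the U3 snoRNA, was at -0.41 with doxycycline (-1.07 to 0.26), an interval that includes equality, and UTP14A, UTP11 and IMP4 lay between 0.32 and 0.51 with intervals of the same kind.

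Among the late small-subunit factors, RRP12, an export factor, had 9.16, 51, 10.1 and 226 reads and a doxycycline ratio of 2.38 (1.56 to 3.53). TSR1, a GTPase-like assembly factor, had 36.7, 144, 54.1 and 324 reads and was at 0.96 untreated (0.44 to 1.54) and 0.55 with doxycycline (0.14 to 1.00). NOB1, the nuclease that makes the final 3′ end of 18S ribosomal RNA, was close to even, at 0.49 (-0.14 to 1.17) and -0.05 (-0.51 to 0.44). TSR1 overlaps SRR and held fractions of reads.

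For large-subunit maturation, 12 of 15 members were measured with doxycycline, 4 of them higher (LAS1L, NOL12, BOP1 and NOP2) and WDR12 lower. Among all 6279 genes, 13.6% were higher and 26.9% lower. The 4 higher members reached the minimum through the EXOSC10 library alone. The PES1, BOP1 and WDR12 complex was divided. BOP1 had 55, 106, 52 and 444 reads and was at -0.05 untreated (-0.54 to 0.44) and 1.06 with doxycycline (0.65 to 1.51), whereas PES1 was at 0.67 (0.07 to 1.34) and 0.07 (-0.38 to 0.54). NOP2, an rRNA cytosine methyltransferase, was at 0.68 (0.04 to 1.39) and 1.03 (0.50 to 1.65). NOP9, which had 34, 112, 41 and 211 reads and overlaps DHRS1 and RABGGTA, was at 0.71 (0.16 to 1.32) and 0.33 (-0.15 to 0.86). It was grouped here by the list used, though it is a small-subunit factor, so this role's counts and share folds include it. NOL9, the kinase partner of LAS1L, had 10, 31, 17 and 90 reads and was at 0.36 with doxycycline (-0.38 to 1.22).

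RNA polymerase I subunits spread widely. POLR1D, a subunit shared with RNA polymerase III, had 130, 129, 169 and 346 reads and ratios of -1.01 and -0.99, and it overlaps LNX2. POLR1C, shared with RNA polymerase III as well, had 21, 67.0, 4.97 and 178 reads and was at 2.97 with doxycycline (1.88 to 4.78). That ratio rests on few IgG reads, and POLR1C overlaps XPO5. The largest subunit POLR1A was at 0.20 (-0.26 to 0.68) and -0.48 (-0.88 to -0.09). POLR1H had 64.0 reads with EXOSC10 and 0 with IgG after doxycycline, at least 5.23-fold higher against a floor of 3 reads, but it overlaps PPP1R11 and lay below the minimum.

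Of the RNase P and RNase MRP proteins, which cut the 5′ ends of transfer RNA precursors and a spacer of the ribosomal precursor, only POP7 and POP1 reached 100 reads with doxycycline. POP7 had 1, 29, 9 and 120 reads and was at 1.64 (0.74 to 2.87), and POP1 had 4, 32, 25 and 83 reads and was at -0.29 (-0.96 to 0.41). NCL, the abundant nucleolar RNA-binding protein nucleolin, had 200, 489, 264 and 1242 reads. Its ratios of 0.29 (0.05 to 0.53) and 0.21 (0.01 to 0.40) were far above those of NPM1, and the intervals of these genes do not overlap in either treatment. NOL3 had 0, 29, 0 and 82.6 reads, at least 4.83-fold and 6.75-fold higher with EXOSC10 against the floor, and it overlaps MATCAP1 and held fractions of reads.

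**Figure D3:**
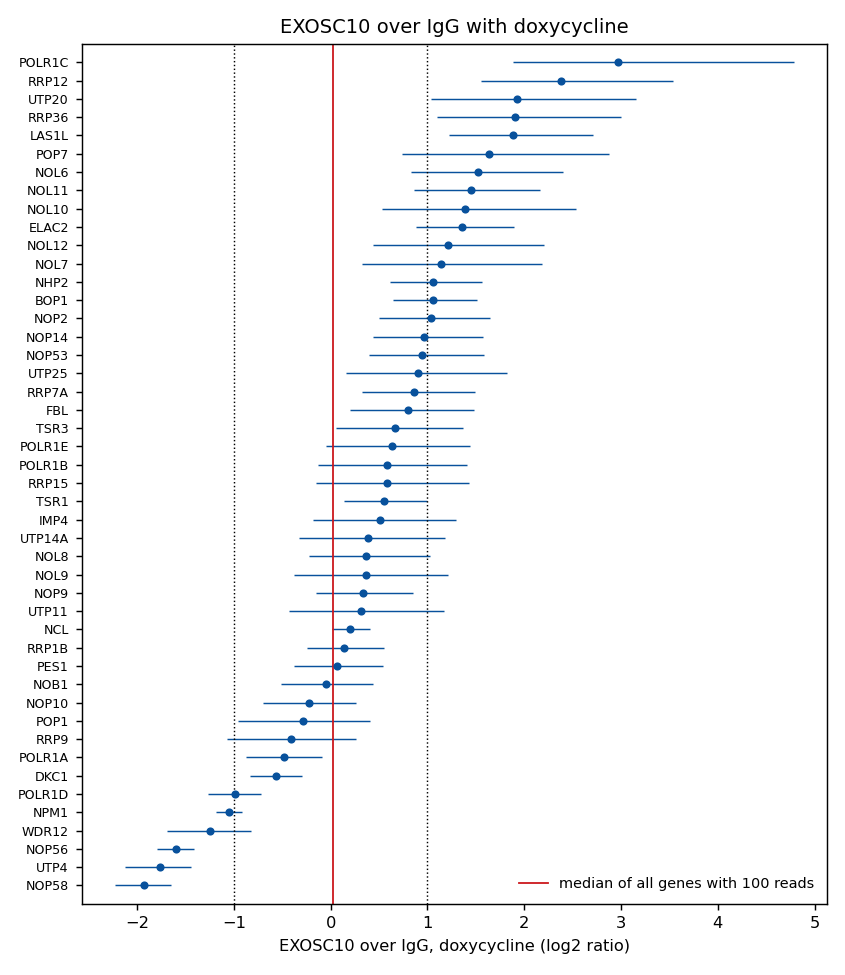
EXOSC10 over IgG log2 ratio after doxycycline for the 46 members with 100 reads in the pair (points) with exact 95% counting intervals (lines); the red line is the median of all 6279 genes and dotted lines mark 2-fold. POLR1C, RRP12, UTP20, RRP36 and LAS1L have intervals wholly beyond 2-fold on the right, and NOP58, UTP4 and NOP56 on the left.

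The primary comparison was EXOSC10-bound RNA with doxycycline over untreated. It had 100 reads for 50 members, of which 4 were higher, against 5.89% of 6584 genes, and 0 were lower, against 4.15%. The members' median was 0.12, with an order-statistic 95% interval of -0.04 to 0.24, and all genes were at -0.05. The 4 of 50 are near the background. With the total of all reads as the scaling, 32 were higher, as were 47.8% of all genes.

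NOL12, a nucleolar RNA-binding protein, was the farthest from even. It had 20, 5, 13 and 127 reads, so the untreated EXOSC10 library was the lowest of the 4 and the doxycycline EXOSC10 library the highest. The ratio was 3.01 (1.99 to 4.90), and its reads were whole. NOL12 lies on chromosome 22 from 37686343 to 37693474. RRP1B, a nucleolar partner of protein phosphatase 1, had 29, 48, 65 and 293 reads and a ratio of 1.18 (0.75 to 1.67). NOL6 was at 1.15 (0.64 to 1.77), with 16, 32, 16 and 193 reads. IMP4, which binds the U3 snoRNA and its target, was at 1.05 (0.40 to 1.85) and held fractions of reads. RRP1, a relative of RRP1B, followed at 0.85 (0.13 to 1.74) and NOP53, which recruits the exosome helicase, at 0.76 (0.32 to 1.25).

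On the other side, POLR1B, the second largest polymerase subunit, came closest to 2-fold, with 14, 83.2, 17.8 and 110 reads and a ratio of -0.99 (-1.43 to -0.58). UTP4 was at -0.75 (-1.13 to -0.39), NOP56 at -0.75 (-0.95 to -0.54), WDR12 at -0.71 (-1.14 to -0.29), POLR1A at -0.67 (-0.997 to -0.35) and NOP58 at -0.65 (-0.99 to -0.33). In this comparison NPM1 was at 0.35 (0.19 to 0.52), unlike the box C/D proteins NOP56 and NOP58, with intervals that do not overlap theirs. With the total of all reads, the 6 members from POLR1B to NOP58 lay above 0, between 0.021 and 0.37. LAS1L was at 0.09 (-0.25 to 0.45), NCL at -0.07 (-0.22 to 0.09) and ELAC2 at -0.38 (-0.64 to -0.13).

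**Figure D4:**
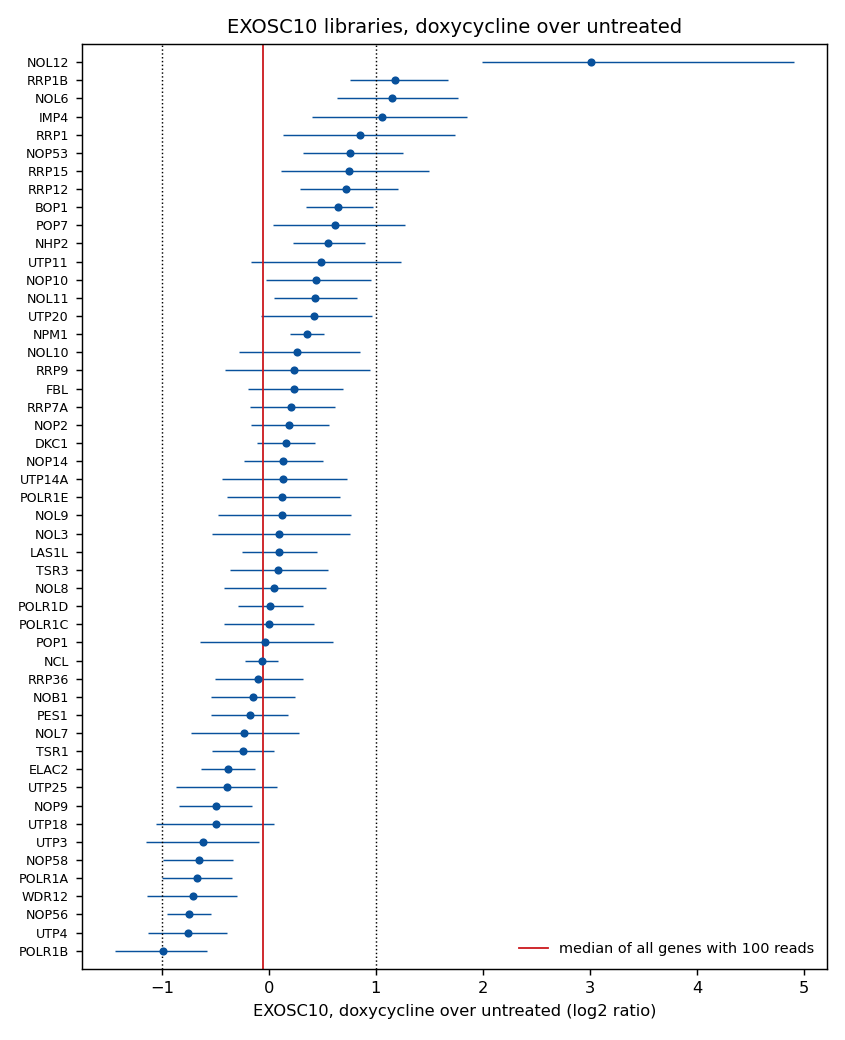
Log2 ratio of doxycycline over untreated in the EXOSC10 libraries for the 50 members with 100 reads in the pair (points) with exact 95% counting intervals (lines); the red line is the median of all 6584 genes and dotted lines mark 2-fold. NOL12 stands apart at 3.01, and most members lie between the dotted lines.

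The IgG pair, the background of that comparison, had 100 reads for 10 members, and 0 were higher or lower, against 2.78% and 3.77% of 3027 genes. DKC1 was at 0.59 (0.19 to 0.99), UTP4 at 0.44 (0.03 to 0.87) and WDR12 at -0.78 (-1.24 to -0.34). The other 7 had intervals that include equality. With the total of all reads these turned to -0.051 for DKC1 and -0.19 for UTP4, and WDR12 was at -1.41. WDR12 was on the lower side with doxycycline under both antibodies with TMM, but at 0.31 in the EXOSC10 libraries with the total of all reads. By limma with antibody as covariate, 0 of 63 members and 0 of 9594 genes changed with doxycycline at an adjusted p under 0.05. At an unadjusted p under 0.05, RRP1B was higher and WDR12 and POP4 were lower, among 189 genes higher and 269 lower.

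The difference between the antibody ratios, doxycycline less untreated, was available for the 19 members with 100 reads in both pairs. It was lowest for UTP4 (-1.19, -1.73 to -0.65), NOP58 (-0.83, -1.28 to -0.38), POLR1A (-0.69, -1.28 to -0.10) and NOP56 (-0.67, -0.97 to -0.37). It was highest for BOP1 (1.11, 0.49 to 1.73), NHP2 (1.04, 0.36 to 1.72) and NPM1 (0.41, 0.19 to 0.64). For the other 12 the interval included 0, LAS1L (0.33, -0.70 to 1.35) and ELAC2 (-0.12, -0.82 to 0.58) among them. These intervals cover counting error only, and the share of all genes with an interval clear of 0 was not counted. With the total of all reads, doxycycline over untreated was 0.27 with EXOSC10 and -0.19 with IgG for UTP4, and 0.37 and -0.46 for NOP58. It was 0.35 and -0.61 for POLR1A and 0.28 and -0.72 for NOP56, so the negative differences of these genes turned positive. They stayed negative when scaled by median of ratios, upper quartile or the total of reads outside ribosomal RNA genes. With the last of these, the ratios were -0.58 with EXOSC10 and 0.60 with IgG for UTP4, and -0.48 and 0.33 for NOP58. POLR1A was then at -0.49 and 0.18, and NOP56 at -0.57 and 0.08.

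A second list of 88 ribosome biogenesis factors that the symbol rule does not reach was set beside these. With doxycycline, 62 of them had 100 reads in the antibody pair, 13 were higher and 8 lower with EXOSC10, and their median was 0.25. Of all 6279 genes there, 13.6% were higher and 26.9% lower, with a median of 0.03. Untreated, 1 of 27 was higher and 4 were lower, with a median of 0.08. Of all 3619 genes in that pair, 4.95% were higher and 36.7% lower, with a median of -0.47. The nuclear exonuclease gene XRN2 was at -2.02 untreated and -2.84 with doxycycline, and TEX10, of the complex in which LAS1L works, was at -2.03 and -2.44. UBTF, the RNA polymerase I factor that binds ribosomal DNA, was at -1.86 and -1.65. ZNHIT6, a box C/D snoRNP assembly factor, was at 3.87 with doxycycline, followed by RRS1 at 1.93 and TAF1C at 1.51, while PNO1 was at -1.77. The highest untreated were GNL3L at 1.03, TBL3 at 0.87 and EIF6 at 0.70. In the primary comparison 3 of 66 were higher and 1 was lower, against 5.89% and 4.15% of 6584 genes. The farthest on either side were NSA2 at 1.31, KRR1 at 1.26, EBNA1BP2 at 1.13, SENP3 at -1.05, SURF6 at -0.83 and NIFK at -0.82. In the IgG pair 0 of 17 were past 2-fold, where 2.78% of 3027 genes were higher and 3.77% lower. The 17 ran from -0.63 for PELP1 to 0.59 for PNO1.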

How the data were processed

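The authors deposited reads per gene model as CPM, judged from the values: once 0.0001, added throughout, is removed, a library sums to 1000000. STAR, Partek and genome build hg38 are named per the submitters' processing notes; no source names versions, a counting rule or a strand setting. The 24015 entries were summed to 12838 symbols. No entry stayed below 10.0 reads in all libraries. All 4 sample columns were used.

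Low values lay on steps worth 1 read (0.132 to 0.269 CPM), and CPM was divided by this step. Between 67.4% and 73.7% of genes per library came within 0.05 of a whole read, so no count model was used; tests planned for counts became limma 3.58.1 on log2(CPM + 0.2), for genes with 10 reads in 2 libraries, with a mean-variance trend and a threshold of 0.05. The fit was tested on simulated data. TMM trimmed 30% of ratios and 5% of levels. Intervals are exact Clopper-Pearson at 95% on the estimated reads, which need not be whole; for the change of enrichment they come from summed reciprocal reads. Named genes were the 6 highest and lowest per ratio, those past 2-fold in both treatments or called by limma, the most-read of each role, and LAS1L, ELAC2 and NOL12. The members, lists and this rule were chosen with earlier results of these data known. Other analyses used Python 3.11.15 and SciPy 1.17.1. Leaving out the most-read member of a role, and the other scalings of the doxycycline ratios of single members, were chosen after seeing the data.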

Additional observations from a re-analysis of the deposited data

Results flagged for a closer look

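UTP4 lay on opposite sides of even with doxycycline under the 2 antibodies: its doxycycline over untreated log2 ratio was -0.75 in the EXOSC10 libraries and 0.44 in the IgG libraries, with both intervals clear of 0. Both signs turned with 1 scaling: with the total of all reads the ratios were 0.27 and -0.19. They kept their signs with median of ratios (-0.85 and 0.41) and upper quartile (-0.66 and 0.48). The same held with the total of reads outside ribosomal RNA genes (-0.58 and 0.60). The difference of the TMM ratios, -1.19, was not tested, since each ratio comes from 1 library per group.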

How the results depend on the processing

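Scaling decided most counts of members past 2-fold. For EXOSC10 over IgG untreated (2 higher, 4 lower with TMM) there were 10 and 0 with the total of all reads, 11 and 0 with the total outside ribosomal RNA genes, and 4 and 2 with the upper quartile, where 31.3%, 38.3% and 8.04% of all genes were higher. With doxycycline (15 and 5) there were 43 and 0 with the total of all reads and 34 and 0 outside ribosomal RNA genes, where 80.9% and 51.9% of all genes were higher. In the EXOSC10 libraries, doxycycline over untreated (4 and 0), 32 were higher with the total of all reads, as were 47.8% of all genes. There 1 was lower with median of ratios, where 6.20% of all genes were. In the IgG libraries (0 and 0), 2 were lower with the total of all reads, where 26.5% of all genes were. Limma's antibody test (6 and 5) gave 3 and 0 with the total of all reads, where 5.36% of all genes were higher. It gave 32 and 0 outside ribosomal RNA genes (36.3% of all genes were higher), and 0 and 0 without the trend. With the total of all reads the doxycycline ratio turned to 0.88 for NOP56, 0.55 for NOP58, 1.44 for NPM1, 0.70 for UTP4 and 1.21 for WDR12. Limma's difference then turned to 0.38 for NOP56, 0.13 for NOP58, 0.39 for NPM1, 0.64 for POLR1D and 0.35 for WDR12. Outside ribosomal RNA genes, POLR1D turned to 0.030 untreated and 0.047 in limma, and NPM1 to 0.0083 with doxycycline. Depth was the other limit. A minimum of 20 reads gave 17 and 8 of 62 members untreated, where 16.5% and 23.0% of all genes were higher and lower. It gave 8 and 2 of 67 for EXOSC10 with doxycycline over untreated (16.5% and 7.93% of all genes). For IgG it gave 4 and 5 of 51 (8.23% and 7.85%). A minimum of 500 reads left 0 and 1 untreated, where 0.422% and 67.2% of all genes were higher and lower. It left 0 and 2 with doxycycline (2.66% and 50.1%), and 0 higher for EXOSC10 with doxycycline over untreated (0.345%). The members' median then lay 0.038 above that of all genes with doxycycline, over 5 members. Keeping genes with whole reads gave 0 higher untreated and 8 with doxycycline, where 4.42% and 11.0% of all such genes were higher. The members' median less that of all genes (0.68 untreated, 0.55 with doxycycline) was 0.32 in both pairs with whole reads and 0.36 and 0.34 with a minimum of 20 reads; for IgG it was -0.0055 at that minimum. For counts that moved and for reversals the cause was not tested. No paired analysis was possible because the labels carry no replicate numbers; limma's additive test already compares the antibodies within each treatment. Leaving out a library left no ratio or no residual degree of freedom.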
